A study of Mus musculus with 18 samples.

Results

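Expression of 10 interferon-inducible GTPase genes was followed in L929 cells, a line of mouse fibroblasts labelled as wild type. The genes were Gbp2, Gbp3, Gbp7, Irgm1, Irgm2, Igtp, Iigp1, Ifi47, Mx1 and Mx2, chosen by symbol from the 57180 genes of the count table, and each symbol matched 1 row. The 18 libraries came from 6 groups of 3 independent cultures. Mock cells were labelled DMSO. AOA cells received 0.5 mM aminooxyacetic acid, an inhibitor of aminotransferases, and AOA+Asp cells received 20 mM aspartate as well. HT-DNA cells were transfected with 0.5 μg/ml herring testis DNA, a ligand of the DNA sensor cGAS, and harvested after 6 h. HT-DNA+AOA cells were given AOA 1 h before the DNA, and HT-DNA+AOA+Asp cells were given aspartate in addition. The same 1 h of pretreatment is listed for AOA and AOA+Asp cells, whose time from AOA to harvest is not given here. Whether the length of AOA exposure was equal with and without HT-DNA is therefore not known here. No group received aspartate without AOA, and the sources used here do not state whether Mock cells received transfection reagent. The comparisons asked how the DNA ligand, AOA and aspartate changed the level of each GTPase transcript.

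These genes encode large GTPases that cells make in response to interferon. The guanylate-binding proteins (Gbp2, Gbp3, Gbp7) and the immunity-related GTPases (Irgm1, Irgm2, Igtp, Iigp1, Ifi47) act against microbes inside cells. They gather on the vacuoles in which parasites and bacteria live. Irgm1, Irgm2 and Igtp are the regulatory members that keep effectors such as Iigp1 inactive on the membranes of the cell itself. Mx1 and Mx2 belong to the dynamin superfamily and block the replication of RNA viruses. Type I interferon induces such genes through factors that bind the interferon-stimulated response element. Interferon-gamma acts at gamma-activated sites.

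Libraries held 17901605 to 24057343 counts, and 14263 genes passed the filter on low counts. Fibroblast markers were present, with 8 of 12 at a mean of at least 1 CPM, the count scaled to library size after TMM normalization, in every group. Of 10 macrophage markers, only Cd68 reached a mean of 1 CPM, and the summed level of the 10 was 112 to 157 CPM over the libraries. Cd14 and Lyz2 also passed the filter. Ptprc and Adgre1, defining markers of leukocytes and macrophages, had 0 counts in every library. No epithelial or endothelial marker reached a mean of 1 CPM. Among replicates, HT-DNA+AOA replicate 1 stood farthest apart, with a chi-square per degree of freedom of 23.6 against replicate 2 and 60.8 against replicate 3, with 16.6 between replicates 2 and 3, whereas replicate pairs of the other groups gave 2.69 to 12.1. The whole group was therefore more spread than the others. All 10 GTPases were highest in replicate 1 among the 3 of its group, so results that use the group are given with and without that library. In bulk samples, fewer cells that express a gene cannot be told apart from less RNA per cell.

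To show which response elements the genes share, the promoter windows of RefSeq (GRCm38.p6, 250 bases before to 50 after the annotated start) were searched on both strands. The windows found covered 7 of the 10 GTPases, with 2 entries for Gbp3, and Mx1, Mx2 and Iigp1 had no entry. A core of the interferon-stimulated response element, written as GAAA, any 2 bases and GAAA again, was present in 6 of these 7 genes, compared with 3.44% of 32851 promoter windows. The longer form with CT directly after the second GAAA was present in 4 (0.271% of all windows). A gamma-activated site core, TTCNNNGAA, was present in Gbp7, Igtp and Irgm2 (8.30% of all windows). Neither core matched in the Ifi47 window or in the second window of Gbp3. The GTPases are counted by gene, whereas the shares are of single windows. A match describes letters and not a bound site. The 120 bases before the start are given for the 6 genes with a match, because they show how close to the start the elements lie and how alike those of Igtp and Irgm2 are. Capitals mark matches to either core, and overlapping matches run together. The regions are chr11:48871421-48871540 (minus strand) for Irgm1, chr11:58214857-58214976 (plus strand) for Irgm2, chr11:58199436-58199555 (plus strand) for Igtp, chr3:142620543-142620662 (plus strand) for Gbp2, chr3:142559924-142560043 (plus strand) for Gbp3 and chr3:142530216-142530335 (plus strand) for Gbp7.
Irgm1: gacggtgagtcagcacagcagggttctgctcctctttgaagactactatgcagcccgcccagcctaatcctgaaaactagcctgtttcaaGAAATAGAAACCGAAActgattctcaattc
Irgm2: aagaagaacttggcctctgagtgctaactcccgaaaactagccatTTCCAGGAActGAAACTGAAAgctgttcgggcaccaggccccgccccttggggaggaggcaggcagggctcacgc
Igtp: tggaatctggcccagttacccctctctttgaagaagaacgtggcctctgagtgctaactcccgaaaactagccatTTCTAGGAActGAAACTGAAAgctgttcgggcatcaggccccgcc
Gbp2: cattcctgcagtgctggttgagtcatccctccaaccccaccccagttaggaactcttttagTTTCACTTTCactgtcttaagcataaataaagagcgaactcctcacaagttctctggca
Gbp3: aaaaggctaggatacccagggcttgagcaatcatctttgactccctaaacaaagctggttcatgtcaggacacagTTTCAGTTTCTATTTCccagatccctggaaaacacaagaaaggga
Gbp7: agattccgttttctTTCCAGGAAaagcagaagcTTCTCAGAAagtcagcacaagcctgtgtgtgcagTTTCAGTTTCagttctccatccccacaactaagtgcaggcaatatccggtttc

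Irgm1 and Gbp3 each carried 2 overlapping copies of the response element core. In Igtp and Irgm2 the gamma-activated site core and the response element core lay side by side in the same order, and an aligned window of 80 bases around them was identical at 77 positions (96.2%). Both genes lie on chromosome 11, and in GENCODE vM21 (GRCm38) the Igtp gene (58199556 to 58207591) overlaps Irgm2 (58199618 to 58222782) on the same strand. Their transcripts also share 326 sequences of 31 bases, which is 15.9% of those of Igtp and 10.7% of those of Irgm2. How the counting program divided such reads is not given in the sources used here, so the values of Igtp and Irgm2 are uncertain with respect to each other. For Gbp7, 14.7% of the 31-base sequences also occur elsewhere, mostly in the annotated gene Gm43802, and the other 7 GTPases share 2.88% to 8.67%. The deposited table gives Mx1 and Mx2 a loss-of-function biotype.

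**Figure D1:**
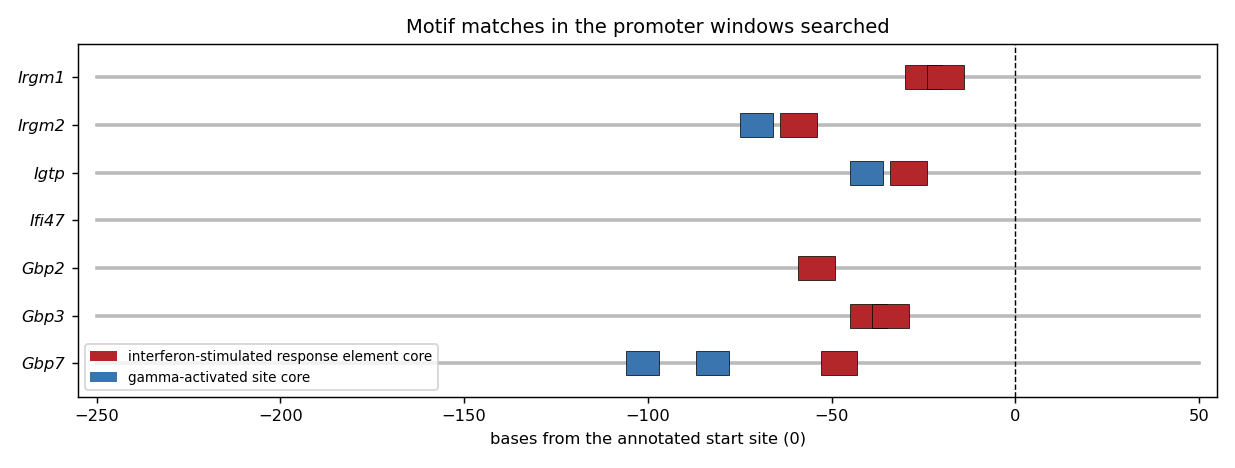
Positions of motif matches in the promoter windows of 7 GTPases, in bases from the annotated start site (0), from 250 bases before to 50 after. Red bars are matches to the interferon-stimulated response element core and blue bars to the gamma-activated site core, and each match lies before the start.

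Baseline levels differed widely among the GTPases. Per kilobase of transcript, Irgm1 was the most abundant in Mock cells at 4.28 ± 0.421 CPM per kb (SD, n = 3). Irgm2 followed at 0.470 ± 0.147 CPM per kb and Igtp at 0.422 ± 0.155 CPM per kb, and their replicates overlapped. The remaining 7 lay between 0.00390 and 0.103 CPM per kb. Irgm1 stood above all the others in each of the 6 groups, with no overlap with the next gene. In HT-DNA+AOA cells, Irgm1 reached 26.5 ± 7.5, Irgm2 8.63 ± 1.38, Mx2 6.09 ± 1.24 and Igtp 5.82 ± 1.25 CPM per kb. The replicates of Irgm2 overlapped those of Mx2, and those of Mx2 overlapped those of Igtp. Mx2 was thus the third by mean there, compared with the sixth in Mock cells. In Mock cells it had 11 counts, and its replicates overlapped those of Gbp3 and Gbp2, the next genes above and below. With the longest transcript of each gene in place of the median length, Irgm1 was at 15.0 CPM per kb in HT-DNA+AOA cells and still above Irgm2 at 8.49 CPM per kb. Gbp7 was lowest in HT-DNA+AOA cells, at 0.259 ± 0.145 CPM per kb, and overlapped Gbp2.

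**Figure D2:**
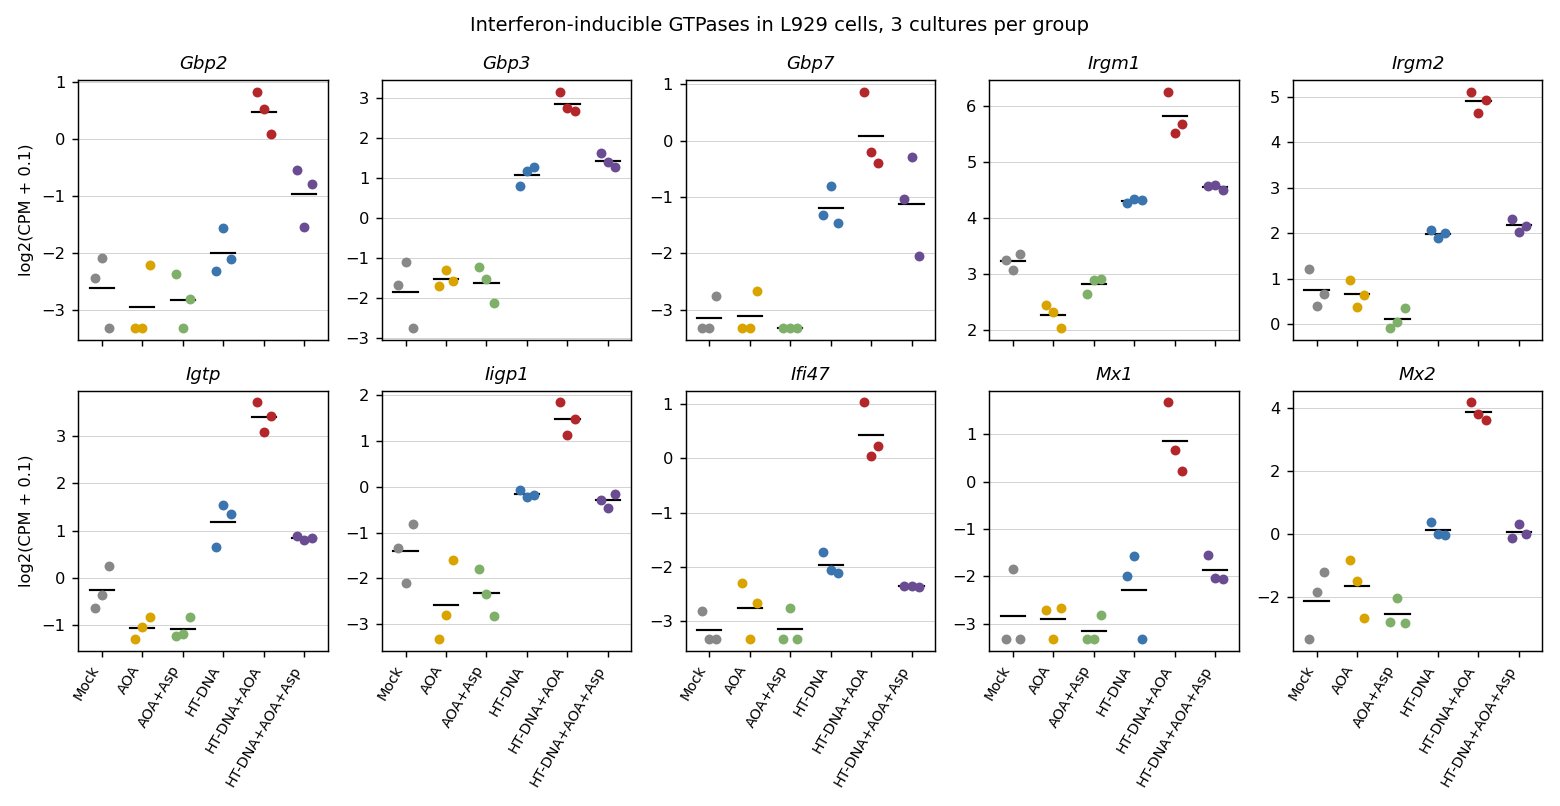
Level of each GTPase in every library, as log2(CPM + 0.1) by group, with points for the 3 cultures and a bar at their mean. Every gene was highest in the HT-DNA+AOA group, and the HT-DNA+AOA+Asp group lay near the HT-DNA group.

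Not all genes were counted equally well. Gbp2, Gbp7, Ifi47 and Mx1 reached the filter level of 0.490 CPM in all 3 libraries of HT-DNA+AOA alone, and had 0 to 5 counts per group in Mock, AOA and AOA+Asp cells. They had to be higher in HT-DNA+AOA cells to be tested at all, so counts are also given for the other 6. Among those 6, Irgm1 and Irgm2 reached the level in all 6 groups, Igtp in 4, and Gbp3, Iigp1 and Mx2 in the 3 HT-DNA groups.

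Without the DNA ligand, AOA did not raise any of the GTPases past the test, and 3 of the 10 were called lower. That share is not far from the 23.3% of all genes tested that were lower in AOA than in Mock cells. The 3 were also 3 of the 6 better counted genes. Of these, Iigp1 reached the filter level in all 3 libraries of neither Mock nor AOA. Irgm1 stood at 9.39, 8.34 and 10.2 CPM in Mock cells and at 5.38, 4.89 and 4.01 CPM in AOA cells. All AOA cultures were therefore below all Mock cultures, as for 2 of the 10 GTPases and 29.6% of all genes, and the log2 fold change was -0.96 (SE 0.177, adjusted p = 0.000231). Igtp was at 0.550, 0.676 and 1.09 CPM in Mock cells and at 0.310, 0.386 and 0.465 CPM in AOA cells, again without overlap (log2 fold change -0.98, SE 0.365, adjusted p = 0.0349). Iigp1 had 20 counts in the Mock libraries and 5 in the AOA libraries, and its replicates overlapped (log2 fold change -1.76, SE 0.700, adjusted p = 0.0471). The Igtp and Iigp1 calls depended on single libraries. Igtp lost its call without Mock replicate 3 (-0.66), AOA replicate 1 (-0.85) or AOA replicate 2 (-0.98), and Iigp1 without Mock replicate 1 (-1.77), Mock replicate 3 (-1.31), AOA replicate 1 (-1.22) or AOA replicate 2 (-1.40), while the difference was -3.38 without AOA replicate 3. Iigp1 also lost its call with a correction for GC content and length (-1.65, adjusted p = 0.0515). Irgm2, in contrast, had a log2 fold change of -0.13 (95% interval -0.65 to 0.38) with overlapping replicates, and Gbp3 one of 0.25 (-0.87 to 1.37).

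Aspartate added to AOA raised Irgm1, the most abundant regulatory member, and no other GTPase. Higher calls made up 23.5% of all genes in this comparison. Irgm1 was at 6.16, 7.39 and 7.42 CPM in AOA+Asp cells, above each AOA culture (log2 fold change 0.55, SE 0.182, adjusted p = 0.0197). The call was lost without AOA replicate 3 (0.45), AOA+Asp replicate 2 (0.51) or AOA+Asp replicate 3 (0.50). Irgm2 moved the other way, from 1.86, 1.2 and 1.45 to 0.840, 0.930 and 1.18 CPM with no overlap, and did not pass (log2 fold change -0.59, 95% interval -1.15 to -0.03, adjusted p = 0.0671). Irgm2 passed once AOA replicate 2 was left out (-0.75), as did Mx2 without AOA replicate 3 (-2.13, against -1.73 with all libraries, adjusted p = 0.0869). Compared with Mock, 0 of the 10 GTPases were called in AOA+Asp cells by edgeR or by DESeq2, with 6.47% of all genes called in either direction. At an unadjusted p under 0.05 there were 4, Irgm1, Irgm2, Igtp and Iigp1, with log2 fold changes of -0.41, -0.73, -0.999 and -1.44. The share of all genes at that unadjusted threshold is not given here, so the 4 cannot be set against it. Iigp1 had 7 counts in AOA+Asp and 20 in Mock cells, with overlapping replicates.

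HT-DNA transfection alone raised 8 of the 10 GTPases, or 6 of the 6 better counted, compared with 24.2% of all genes tested. Gbp3, Iigp1 and Mx2 did not reach the filter level in Mock cells, so the genes that were not bound to be higher are Irgm1, Irgm2 and Igtp. Irgm1 rose to 19.2, 20.2 and 19.8 CPM, above every Mock culture (log2 fold change 1.09, SE 0.154, adjusted p = 3.17e-05). Irgm2 stood at 2.20, 1.22 and 1.47 CPM in Mock cells and 4.09, 3.6 and 3.93 CPM after HT-DNA (log2 fold change 1.24, SE 0.204, adjusted p = 0.000120). Igtp rose to 1.47, 2.79 and 2.45 CPM (log2 fold change 1.54, SE 0.276, adjusted p = 0.000245). The 3 regulatory GTPases therefore increased by 2.12- to 2.92-fold, and no replicates overlapped. Groups did not overlap for 8 of the 10 GTPases, all higher after HT-DNA, and for 30.6% of all genes in that direction.

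Gbp3, a guanylate-binding protein, showed a larger difference. Its levels were 0.212, 0.360 and 0.0475 CPM in Mock cells and 1.62, 2.13 and 2.31 CPM after HT-DNA, a log2 fold change of 3.24 (SE 0.362). For Mx2 they were 0, 0.180 and 0.332 CPM and then 1.21, 0.900 and 0.873 CPM (2.54, SE 0.528). The effector Iigp1 was at 0.296, 0.135 and 0.475 CPM and then at 0.859, 0.758 and 0.786 CPM (1.40, SE 0.466), and lost its call without Mock replicate 1 (1.39), Mock replicate 2 (1.06) or HT-DNA replicate 1 (1.35). Gbp7 had 1 count in the Mock libraries and 22 in the HT-DNA libraries, a ratio of 23.1 with a 95% counting interval of 3.73 to 952. Ifi47 had 1 and 10 counts, a ratio of 10.5 (1.49 to 455), and was not called without Mock replicate 2, Mock replicate 3 or HT-DNA replicate 1. Gbp2 (5 and 10 counts, adjusted p = 0.344) and Mx1 (4 and 8 counts, adjusted p = 0.479) did not pass, and for Mx1 the log2 fold change of 1.00 ran from 0.22 to 4.45 as libraries were left out.

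AOA given before HT-DNA raised the GTPases well beyond HT-DNA alone. All 10 were called higher, as were 6 of the 6 better counted, compared with 22.8% of all genes tested. The lowest HT-DNA+AOA culture exceeded the highest HT-DNA culture for 6 of the 6 better counted genes, compared with 21.9% of all genes, and for the other 4, whose direction the filter had set. Across the 6, the median log2 fold change was 2.03, and it was 0.02 over all genes tested.

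Among the regulatory members, Irgm2 rose most. Its 34.5, 25.0 and 30.4 CPM in HT-DNA+AOA cells compared with 3.6 to 4.09 CPM in HT-DNA cells, a 7.72-fold increase (log2 fold change 2.95, SE 0.167, adjusted p = 9.98e-11). Igtp reached 13.0, 8.37 and 10.7 CPM (2.25, SE 0.223, adjusted p = 1.43e-07), against 1.47 to 2.79 CPM. Irgm1 reached 76.1, 45.6 and 50.9 CPM (1.54, SE 0.142, adjusted p = 5.07e-08), with replicate 1 far above the other two. Irgm1 therefore kept the highest level per kilobase, with a fold increase of 2.91. Of the effectors, Iigp1 was at 3.50, 2.10 and 2.68 CPM (1.78, SE 0.369, adjusted p = 0.000601). Ifi47 went from 0.202, 0.142 and 0.131 to 1.93, 0.924 and 1.07 CPM (3.02, SE 0.500, adjusted p = 6.40e-05), with its direction set by the filter.

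The Mx genes, which carry a loss-of-function biotype here, had the largest fitted fold differences of the 10. The log2 fold change of Mx1 rests on 8 counts in HT-DNA cells. It ran from 3.23 to 4.62 as libraries were left out. Mx2 rose from 1.21, 0.900 and 0.873 CPM to 18.02, 14.0 and 12.2 CPM (log2 fold change 3.89, SE 0.320, adjusted p = 1.24e-08), and Mx1 from 0.152, 0.237 and 0 to 3.08, 1.49 and 1.07 CPM (3.84, SE 0.673, adjusted p = 0.000116). For both genes the lowest treated culture lay far above the highest HT-DNA culture. Mx1, Gbp2 and Gbp7, however, passed the filter only through HT-DNA+AOA cells, which set their direction. Gbp3 stood at 8.78, 6.57 and 6.2 CPM (1.82, SE 0.243, adjusted p = 5.35e-06). Gbp2, known for its recruitment to parasite vacuoles, went from 0.101, 0.237 and 0.131 to 1.67, 1.33 and 0.954 CPM (3.03, SE 0.558, adjusted p = 0.000191). Gbp7 changed least clearly, from 0.303, 0.474 and 0.262 to 1.72, 0.770 and 0.656 CPM (1.60, SE 0.542, adjusted p = 0.0234).

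Without HT-DNA+AOA replicate 1, 9 of the 10 GTPases were still called higher, including each of the better counted genes. The direction of Gbp2, Ifi47 and Mx1 among them had been set by the filter. For all genes, the share called without that library is not given here. The log2 fold changes were then 1.29 for Irgm1, 2.83 for Irgm2, 2.08 for Igtp, 1.57 for Iigp1, 3.72 for Mx2 and 1.65 for Gbp3. Gbp7 lost its call (1.04, adjusted p = 0.160), and also did so without HT-DNA replicate 1 (1.52) or HT-DNA replicate 3 (1.42). Summed macrophage markers were 140 to 157 CPM in HT-DNA+AOA libraries 114 to 128 CPM in HT-DNA libraries and 128 to 139 CPM in HT-DNA+AOA+Asp libraries, nearly all of it Cd68, with 1 of the 10 markers at a mean of at least 1 CPM and Ptprc and Adgre1 at 0 counts. Its part in these results was not tested.

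**Figure D3:**
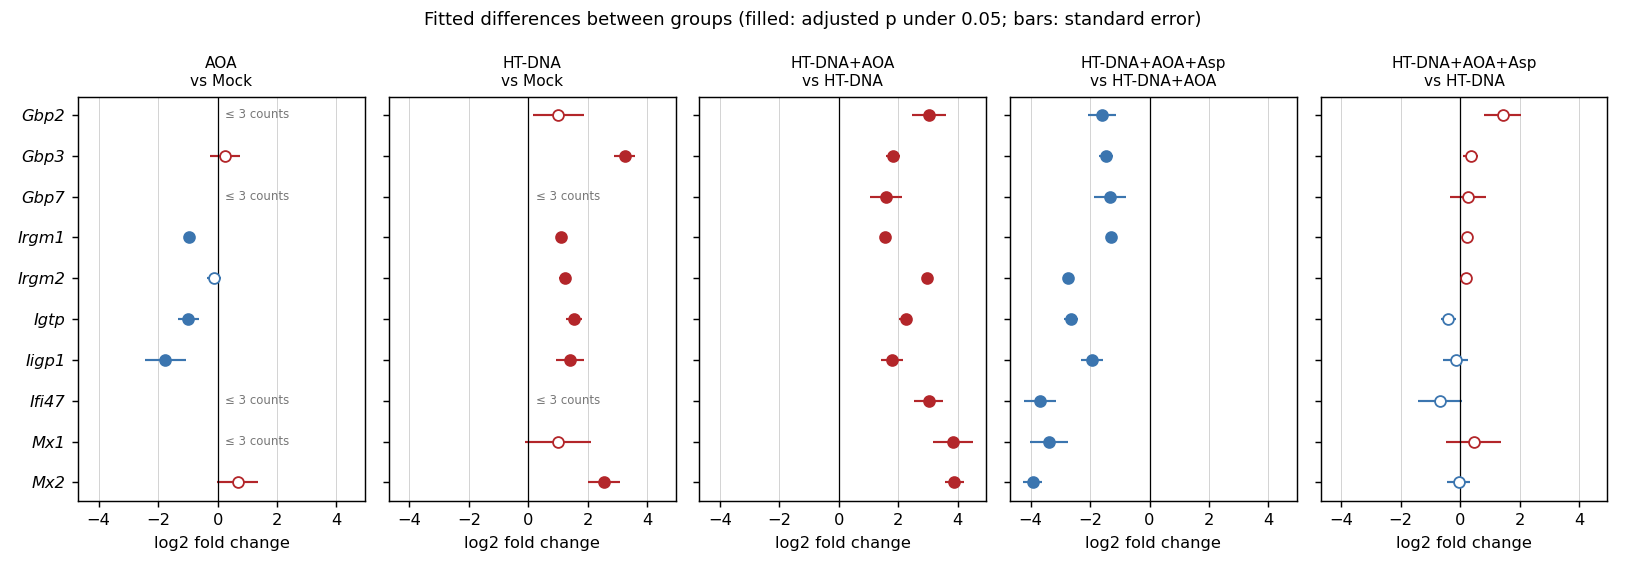
Log2 fold change of each GTPase in 5 comparisons, with bars for the standard error and filled points for an adjusted p under 0.05. Entries in which a group had 3 or fewer counts carry no point, and the points for HT-DNA+AOA against HT-DNA lie to the right of 0 while those for aspartate added to HT-DNA+AOA lie to the left.

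Aspartate lowered the GTPases in cells that had received HT-DNA and AOA. Each of the 10 was called lower, 6 of the 6 better counted among them, compared with 23.9% of all genes. No replicates overlapped in 6 of the 6, against 23.8% of all genes in that direction. Gbp2, Ifi47 and Mx1 did not overlap either and Gbp7 did, but the filter had set the direction of these genes. The median log2 fold change of the 6 was -2.29, and that of all genes tested was -0.01. HT-DNA+AOA+Asp cells were compared here with the HT-DNA+AOA libraries that also enter the comparison above.

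The order of the genes by size of the difference placed Mx2 first. Mx2 was at 0.822, 1.15 and 0.900 CPM in HT-DNA+AOA+Asp cells, a 15.3-fold lower level (log2 fold change -3.94, SE 0.321, adjusted p = 1.71e-08). Ifi47 was at 0.0967, 0.0962 and 0.0947 CPM, from 2 counts in each library (-3.70, SE 0.546, adjusted p = 2.33e-05). Mx1 was at 0.242, 0.144 and 0.142 CPM (-3.38, SE 0.639, adjusted p = 0.000285). Ifi47 and Mx1 passed the filter only through HT-DNA+AOA cells, so their fall from that group was largely set in advance. Irgm2, at 4.88, 3.99 and 4.36 CPM, was 6.78-fold lower (-2.76, SE 0.165), and Igtp, at 1.74, 1.64 and 1.70 CPM, was 6.28-fold lower (-2.65, SE 0.231). Irgm1 was at 23.8, 23.8 and 22.4 CPM, or 2.46-fold lower (-1.30, SE 0.140, adjusted p = 5.58e-07).

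Iigp1 was at 0.725, 0.625 and 0.805 CPM (-1.93, SE 0.375, adjusted p = 0.000366) and Gbp3 at 2.95, 2.5 and 2.32 CPM (-1.47, SE 0.237, adjusted p = 5.92e-05), both below each HT-DNA+AOA culture. Gbp2 and Gbp7, again, passed the filter only through HT-DNA+AOA cells. Gbp2 was at 0.580, 0.240 and 0.473 CPM (-1.61, SE 0.477, adjusted p = 0.00983) and lost its call without HT-DNA+AOA+Asp replicate 2 (-1.32). Gbp7, at 0.387, 0.722 and 0.142 CPM, overlapped the HT-DNA+AOA group (-1.33, SE 0.529, adjusted p = 0.0471). Its call did not hold without HT-DNA+AOA replicate 1 (-0.77), HT-DNA+AOA replicate 2 (-1.52), HT-DNA+AOA+Asp replicate 1 (-1.28) or HT-DNA+AOA+Asp replicate 3 (-0.92), nor with DESeq2 (-1.35). Without HT-DNA+AOA replicate 1, the other 9 were called lower, with -1.05 for Irgm1, -2.65 for Irgm2, -2.48 for Igtp and -3.76 for Mx2. The direction of Gbp2, Ifi47 and Mx1 among them had been set by the filter, and the share of all genes is not given for this fit.

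When HT-DNA+AOA+Asp cells were set against HT-DNA cells, 0 of the 10 GTPases were called by edgeR or DESeq2, although 46.6% of all genes were called in either direction. Only Gbp2 had an unadjusted p under 0.05 (log2 fold change 1.43, SE 0.635, adjusted p = 0.0731), with HT-DNA+AOA+Asp cultures above all HT-DNA cultures. The intervals show how much difference remained possible. For Irgm1 the log2 fold change was 0.24 (95% interval -0.07 to 0.56), for Irgm2 0.19 (-0.21 to 0.58), for Gbp3 0.35 (-0.20 to 0.91) and for Igtp -0.41 (-0.95 to 0.14). The intervals of Mx2 (-0.89 to 0.80) and Iigp1 (-1.05 to 0.75) were wider, and those of Gbp7, Ifi47 and Mx1 spanned over 2 log2 units. Irgm1 and Gbp3 were higher in each HT-DNA+AOA+Asp culture than in any HT-DNA culture, without passing the test, and 4 of the 10 GTPases and 61.1% of all genes showed no overlap in either direction. With a fit to the libraries of these 2 groups alone, Irgm1 passed (log2 fold change 0.25, adjusted p = 0.00986).

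The effect of AOA depended on the DNA ligand for 5 of the GTPases, by a direct test of the difference between the effect with and without HT-DNA. Calls in this direction made up 7.23% of all genes tested. On the log2 scale the difference was 2.5 for Irgm1 (SE 0.226, adjusted p = 3.51e-06), 3.08 for Irgm2 (SE 0.288), 3.23 for Igtp (SE 0.424), 3.54 for Iigp1 (SE 0.783) and 3.22 for Mx2 (SE 0.844, adjusted p = 0.0172). Irgm1 thus fell with AOA alone and rose with AOA in the presence of HT-DNA. The falls of Igtp and Iigp1 with AOA alone did not hold without single libraries, while Irgm2 changed with AOA by less than its error without the ligand. Mx2 lost the call without Mock replicate 2 (3.15) or Mock replicate 3 (2.34). Gbp3 did not pass (1.57, SE 0.589, adjusted p = 0.0750) but did without Mock replicate 3 (2.00) or HT-DNA+AOA replicate 3 (1.66). Without HT-DNA+AOA replicate 1, 5 GTPases were called, with 2.24 for Irgm1 and 3.04 for Mx2. Without HT-DNA+AOA replicate 3 there were 8, more than the 6 better counted genes. Some of the 8 were therefore among Gbp2, Gbp7, Ifi47 and Mx1, whose direction the filter had set. These 4 genes had 3 or fewer counts in AOA cells, and no fitted value is given for them.

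For aspartate, the difference between its effect with and without HT-DNA passed for the 3 regulatory GTPases, all downward, compared with 0.785% of all genes. The values were -1.85 for Irgm1 (SE 0.229, adjusted p = 0.000162), -2.17 for Irgm2 (SE 0.312, adjusted p = 0.000905) and -2.63 for Igtp (SE 0.485, adjusted p = 0.00810). Irgm1 rose with aspartate in the absence of HT-DNA and fell in its presence. Igtp did not pass without AOA+Asp replicate 3 (-2.45). Gbp3 (-1.35), Iigp1 (-2.26) and Mx2 (-2.21) had adjusted p from 0.392 to 0.511.

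**Figure D4:**
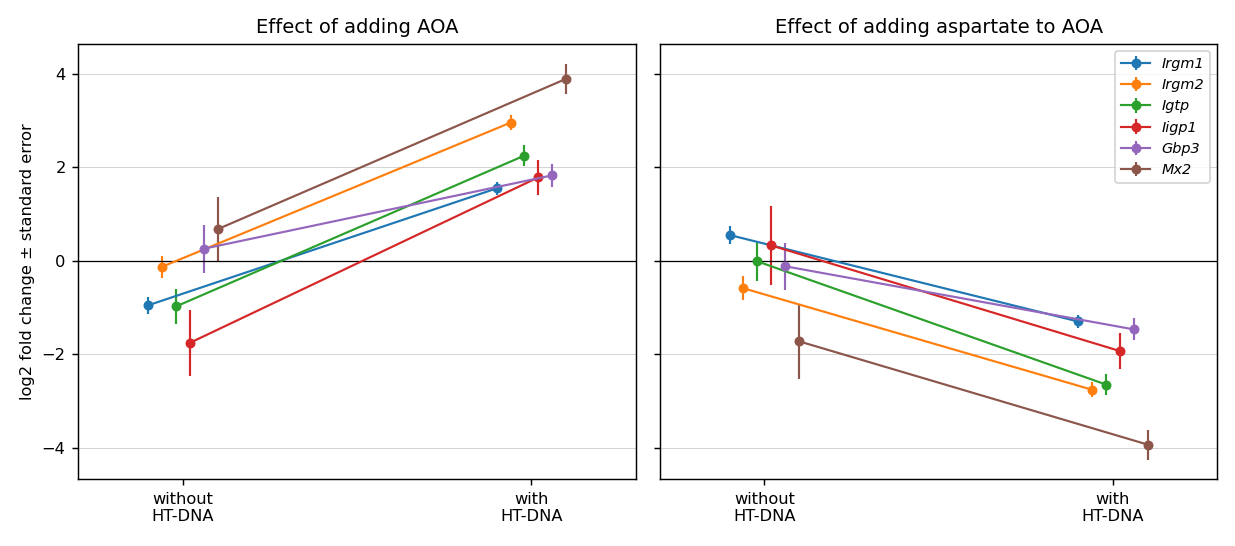
Log2 fold change (± standard error) of the 6 better counted GTPases for AOA against no AOA (left) and for aspartate added to AOA (right), without and with HT-DNA. The lines rise on the left for each gene and fall on the right.

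Among 21 other interferon-inducible GTPases that were listed for comparison, 19 were found in the table and 7 were tested. Of these 7, 6 were higher and 1 lower in HT-DNA+AOA than in HT-DNA cells, beside 22.8% and 22.7% of all genes. Gbp10, Gbp2b, Tgtp1 and Tgtp2 reached the filter level in all 3 libraries of no group other than HT-DNA+AOA, so their direction was largely set by the filter, and of the other 3 genes 2 were higher and 1 lower. Gbp5, which takes part in inflammasome assembly, was at a mean of 0.829 CPM in HT-DNA and 3.22 CPM in HT-DNA+AOA cells (log2 fold change 1.97, adjusted p = 0.000187). Tgtp2, an effector of the immunity-related family, was at 0.267 and 1.42 CPM (2.39, adjusted p = 0.00108). Tgtp1 had 0 counts in the HT-DNA group and a mean of 1.01 CPM in HT-DNA+AOA cells. Tgtp1 and Tgtp2 are close copies, so the division of reads between them is uncertain. The lower gene was Irgq, a listed family member not known to be induced by interferon, at 21.6 and 10.3 CPM (-1.07, adjusted p = 2.40e-08). Aspartate in HT-DNA+AOA cells lowered 4 of the 7 and raised Irgq (1.17, adjusted p = 1.11e-08), and among the 3 genes not set by the filter 1 was lower and 1 higher (23.9% and 23.7% of all genes).

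Genes of interferon signalling showed a more mixed picture. Of 16 tested, 7 were higher and 4 lower in HT-DNA+AOA than in HT-DNA cells (22.8% and 22.7% of all genes), and 9 were lower and 5 higher when aspartate was added (23.9% and 23.7%). Stat2 and Irf9, which act together in type I interferon signalling, were among those that rose. Stat2 was at 30.96 CPM in HT-DNA and 61.4 CPM in HT-DNA+AOA cells (log2 fold change 0.99, adjusted p = 1.01e-07) and Irf9 at 26.6 and 71.5 CPM (1.42, adjusted p = 9.01e-11). With AOA alone, 7 of the 16 were lower and 2 higher than in Mock cells, beside 3317 lower and 3199 higher of all 14263 genes. Among the lower ones, Stat2 fell (-0.89, adjusted p = 2.18e-06), as Irgm1 did. Irf1, a factor induced by interferon, fell as well (-0.71, adjusted p = 1.13e-05). Irf7, which amplifies the type I interferon response, and Usp18, which dampens signalling at the receptor, were highest in HT-DNA+AOA cells. Socs3, an inhibitor of cytokine signalling, was lower with AOA both without HT-DNA (-1.58) and with it (-1.59). Ifnb1, the gene of interferon-beta, had a mean of 0.213 CPM in HT-DNA+AOA cells, 0.0161 CPM in HT-DNA+AOA+Asp cells and 0 counts in the other 4 groups at the time of harvest, and was not tested. For the direct test of AOA with and without HT-DNA, 6 of the 16 were higher (7.23% of all genes) and 0 lower, and for aspartate 0 were higher and 5 lower (0.785% of all genes).

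**Figure D5:**
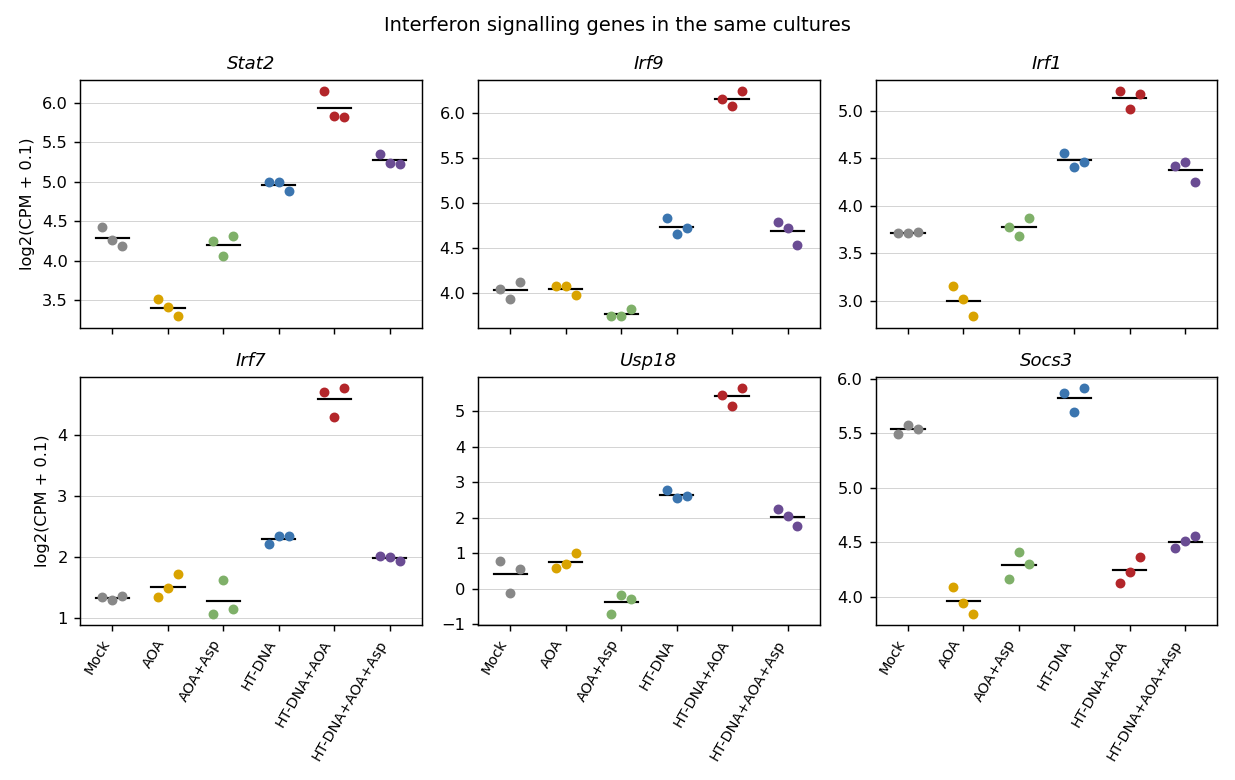
Levels of 6 interferon signalling genes in every library, as log2(CPM + 0.1) by group, with a bar at the mean of 3 cultures. All but Socs3 were highest in the HT-DNA+AOA group, and Stat2, Irf1 and Socs3 were lower in AOA than in Mock cells.

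The 10 GTPases also varied together over the 18 libraries. The correlation of each with the mean profile of the other 9, on log2 CPM scaled per gene, ran from 0.904 for Mx1 to 0.975 for Irgm2, which is a description over libraries that share the same 6 treatments. Gbp2, Gbp7, Ifi47 and Mx1 passed the filter only through HT-DNA+AOA cells, so their shared peak there was set in advance. They also enter the mean profiles used here. Ranked by correlation with the mean profile of the 10, the most similar genes among all other tested genes were Rigi (r = 0.993), an RNA sensor, Ifi207 (0.992), an interferon-inducible gene, Znfx1 (0.984), Ccrl2 (0.981), Sp140 (0.980), Irf9 (0.977), Tlr2 (0.975), Heatr9 (0.973), Herc6 (0.969) and Dtx3l (0.968). With the means of the 6 groups in place of the libraries, 5 of these 10 genes were again among the 10 most similar.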

How the data were processed

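RNA from 18 L929 cultures was sequenced by the study, and the table deposited by the authors holds an estimated count for every gene in each library, not normalized. Of these values, 11.6% were not whole, and all were rounded. The aligner, counting program and genome build are not given in the sources used here. The 6 columns of group means were not used. The 10 genes and the lists were chosen with earlier results of these data known, and 1 listed signalling gene is not reported here.

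Counts were fitted in R 4.3.3 with edgeR 4.0.16 after filterByExpr (minimum count 10, minimum total 15), which left 14263 genes, and TMM scaling. All 18 libraries entered 1 robust quasi-likelihood model, and two-sided p-values were adjusted by the Benjamini-Hochberg method over all genes tested, with 0.05 as threshold. Ratios for groups with 1 to 3 counts carry exact 95% intervals for counting error only. All 10 genes were named in each comparison. Transcript lengths, GC content and shared 31-base sequences came from GENCODE vM21 (GRCm38) and promoters from RefSeq (GRCm38.p6), which may differ from the build used by the authors. Levels per kilobase used the median length of a gene's basic transcripts. Alternatives were DESeq2 1.42.0, RLE scaling, library totals, other filters, a fold threshold, a replicate block, fits to the compared libraries alone, a GC and length correction, and leaving out each library. The model steps were tested on simulated data.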

Additional observations from a re-analysis of the deposited data

Results flagged for a closer look

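The effect of AOA differed between cells with and without HT-DNA for 5 GTPases, by the test of the difference itself in edgeR. On the log2 scale the differences were 2.5 for Irgm1, 3.08 for Irgm2, 3.23 for Igtp, 3.54 for Iigp1 and 3.22 for Mx2, each from 3 cultures in each of 4 groups. With DESeq2, 4 members were called. None of the 5 had an adjusted p of 0.05 or more there, and a gene left uncalled was given no adjusted p. The effect of aspartate differed with HT-DNA for Irgm1 (-1.85), Irgm2 (-2.17) and Igtp (-2.63), and DESeq2 also called 3.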

How the results depend on the processing

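Of 70 fold changes of single GTPases, 43 kept their direction and side of the threshold under every alternative run, and 27 did not in at least 1. With at least 10 counts in every library only Irgm1 and Irgm2 were tested, and 2 were called for HT-DNA against Mock, for HT-DNA+AOA against HT-DNA, for aspartate with HT-DNA+AOA and for the AOA difference, and 1 for AOA against Mock. A required log2 change of 1 or more in size left 1 for AOA against Mock and 0 for AOA+Asp against AOA. For AOA+Asp against AOA, DESeq2, no filter, and the GC and length correction each gave 2. For AOA+Asp against Mock, no filter and the fit to the compared libraries gave 1, and the GC and length correction 2. HT-DNA+AOA+Asp against HT-DNA gave 1 with the compared libraries alone.

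Leaving out single libraries gave 1 to 3 calls for AOA against Mock, 0 to 2 for AOA+Asp against AOA, 6 to 8 for HT-DNA against Mock, 9 to 10 for HT-DNA+AOA against HT-DNA and for added aspartate, 4 to 8 for the AOA difference and 2 to 3 for the aspartate difference. The counts include genes whose direction the filter had set, and shares of all genes are not given for these fits. Sign changes were limited to uncalled values. With libraries left out, Gbp3 (-0.18 to 0.87) and Irgm2 (-0.32 to 0.15) changed sign for AOA against Mock, Gbp3 (-0.45 to 0.19), Igtp (-0.20 to 0.11) and Iigp1 (-0.29 to 1.94) for AOA+Asp against AOA, Gbp3 (-0.30 to 0.75) for AOA+Asp against Mock, and Gbp7 (-0.38 to 0.67), Mx1 (-0.15 to 1.23) and Mx2 (-0.20 to 0.11) for HT-DNA+AOA+Asp against HT-DNA. Iigp1 in AOA against Mock lost its call with the GC and length correction (-1.65). Igtp in AOA+Asp against AOA was 0.067 with library totals and 0.10 with the GC and length correction. In HT-DNA+AOA+Asp against HT-DNA, that correction gave -0.15 for Gbp7, -0.0031 for Irgm1, -0.02 for Irgm2 and 0.056 for Mx2, and library totals 0.0047 for Mx2. The cause was not tested.

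Library totals in place of TMM shifted the median of all genes by -0.13 for AOA against Mock and by -0.11 for HT-DNA against Mock, and the share of higher genes among calls went from 49.1% to 32.1% and from 50.2% to 35.2%. It went from 50.7% to 62.2% for AOA+Asp against AOA, from 39.0% to 20.9% for AOA+Asp against Mock, from 49.8% to 62.2% for aspartate with HT-DNA+AOA, and from 46.7% to 64.5% for the AOA difference. The GC and length correction took the share for AOA+Asp against Mock to 54.7%, and for the aspartate difference from 25.3% to 47.1%. The fit to the compared libraries moved these to 51.4% and 9.09%, and no filter the former to 49.4%. DESeq2 moved the aspartate difference to 36.0%.

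The replicate number as a block gave 2 calls for AOA+Asp against AOA and 1 for AOA+Asp against Mock, Irgm2 being the gene gained in both (-0.60 and -0.71). Same-numbered libraries correlated from -0.19 to 0.22, so the numbers were not taken as pairs. Genes with few counts in the groups without HT-DNA limit what can be said of AOA alone.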

Other observations

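A list of genes for ATG conjugation and GTPase recruitment, which also holds ubiquitin ligases and an autophagy receptor, was measured as well. Of its 15 genes, 7 were higher and 3 lower in HT-DNA+AOA than in HT-DNA cells, with 8 lower and 2 higher once aspartate was added. Over all genes, 22.8% were higher and 22.7% lower in the first comparison, and 23.9% lower and 23.7% higher in the second. Trim21, an antibody receptor and ubiquitin ligase, went from a mean of 4.08 CPM to 19.7 CPM and back to 4.01 CPM. Its log2 fold changes were 2.27 (adjusted p = 7.66e-08) and -2.30 (adjusted p = 1.05e-07). Rnf213, a large ubiquitin ligase, went from 87.4 to 314 and 132 CPM (1.84 and -1.26). Sqstm1, an autophagy receptor, was higher with AOA by 0.72 without HT-DNA and by 0.74 with it, and the difference between these effects did not pass (0.02, adjusted p = 0.917). Atg7, an activating enzyme of ATG conjugation, fell with AOA by 0.40 without HT-DNA and by 0.72 with it.

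Of 12 tested dynamin-superfamily and related genes that are not known as interferon targets, 3 were higher and 4 lower in HT-DNA+AOA than in HT-DNA cells, beside 22.8% and 22.7% of all genes. Ehd2, a membrane-shaping ATPase, was the lowest of these (-1.02, adjusted p = 7.05e-10), and Atl3, which joins membranes of the endoplasmic reticulum, the highest (0.73, adjusted p = 5.76e-05). Their median log2 fold change was -0.10.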
